A study of Homo sapiens with 8 samples.

Results

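The ZNF genes described here are those whose names, ZNF followed by digits and at most 1 letter, occurred in both gene name columns of the authors' deposited table, that of HUH7 and that of PLC/PRF/5. They were selected on being listed with a value in each line, and the rule did not use its size. Whether the authors' listing itself depended on size is not given in the sources used here. There were 137 such genes, ZNF473 left aside, among 12058 names in either column and 3866 names in both. They are set beside 272 ZNF genes listed in HUH7 only and 7 listed in PLC/PRF/5 only. HUH7 and PLC/PRF/5 are human hepatocellular carcinoma cell lines. In each line, parental cells (CON) were compared with cells in which CSTF2, a subunit of the cleavage stimulation factor of mRNA 3′ ends, had been knocked out by CRISPR-Cas9 (CKO). m6A MeRIP-seq enriches fragmented RNA carrying N6-methyladenosine with an antibody, and the enriched RNA is sequenced next to its input. The series held 8 libraries in 8 groups, 1 immunoprecipitate and 1 input per genotype and line, so no value had a replicate and no difference was tested.

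Whether the knockout cells are 1 clone or a pool is not given in the sources used here. The authors' deposited table holds log2 fold changes between control and knockout, but its headers do not say which is the numerator, so signs are given as deposited. In these bulk libraries, fewer cells holding an RNA and less of it per cell cannot be told apart. The values of the PLC/PRF/5 column are spread evenly over their range. Whether each belongs to the gene name beside it was not tested, and every PLC/PRF/5 value per gene below is given under that limit. Sequencing depth is unknown, and no value has an interval from counts. The table gives fold changes and no levels, so the liver origin could be checked only by listing: 8 of 11 hepatocyte markers were listed in HUH7 and 7 of 11 in PLC/PRF/5, against 6 and 2 of 8 markers of other cell types. In HUH7 these shares are alike, so listing did not set liver apart from other cell types there. CSTF2 was not listed in HUH7 and had for PLC/PRF/5 the value -0.50 in the authors' deposited table, which as an m6A value is no check of the knockout.

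ZNF is the general symbol of zinc finger protein genes, and most encode proteins with a row of C2H2 fingers, each folded around a zinc ion and able to contact DNA. Many also carry a KRAB domain, which binds the corepressor TRIM28 and through it the H3K9 methyltransferase SETDB1 and HP1 proteins, and these repress transposable elements and genes. Others carry a SCAN domain, through which the proteins pair. The genes lie in clusters that arose by tandem duplication, above all on chromosome 19, so that neighbours can be very alike in sequence. m6A is laid on mRNA by the METTL3-METTL14 methyltransferase, mostly within long exons and near stop codons, and the fingers of a ZNF protein are as a rule encoded in 1 long last exon.

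Nearly all ZNF genes of the PLC/PRF/5 column were also in the HUH7 column. The 137 shared genes were 95.1% of the 144 ZNF names in PLC/PRF/5 (Clopper-Pearson 95% interval 90.2 to 98.0) and 33.5% of the 409 ZNF names in HUH7. Of all PLC/PRF/5 names, 70.6% were also in HUH7, and of the protein-coding ones 80.6%, against 97.2% of the 141 protein-coding ZNF names. These intervals describe the lists and contain no error between libraries. Listing in both columns is the rule itself, so these shares are a description. ZNF genes were 3.91% of the HUH7 names and 2.63% of the PLC/PRF/5 names. The 7 genes found only in PLC/PRF/5 were the pseudogenes ZNF204P, ZNF271P and ZNF252P, and ZNF571, ZNF391, ZNF711 and ZNF326, a component of a complex that links transcription elongation to splicing. ZNF326 had 3 values, 1.72, 2.01 and 4.95, in the authors' deposited table. ZNF711 alone of the 7 was below 0, at -0.28 in the authors' deposited table.

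The shared ZNF genes were less concentrated on chromosome 19 than those listed in HUH7 alone. Chromosome 19 held 52 of the 137 (38.0%, Clopper-Pearson 95% interval 29.8 to 46.6) and 151 of the 272 HUH7-only genes (55.5%, 49.4 to 61.5). Chromosome 16 held 12, chromosome 3 held 9, and chromosomes 7 and 12 held 7 each. Read the other way, 25.6% of the 203 chromosome 19 ZNF genes of HUH7 were also in PLC/PRF/5, against 41.3% of the 206 on other chromosomes. Genes not named ZNF showed a like difference, with 21.7% of 605 on chromosome 19 and 38.7% of 9112 elsewhere. The median gene length, introns included, was 24862 bases for the shared genes and 21823 bases for the HUH7-only genes, against 30633 bases over protein-coding names of HUH7. The shared genes ran from ZNF830 (2238 bases) to ZNF407 (467802 bases).

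**Figure D1:**
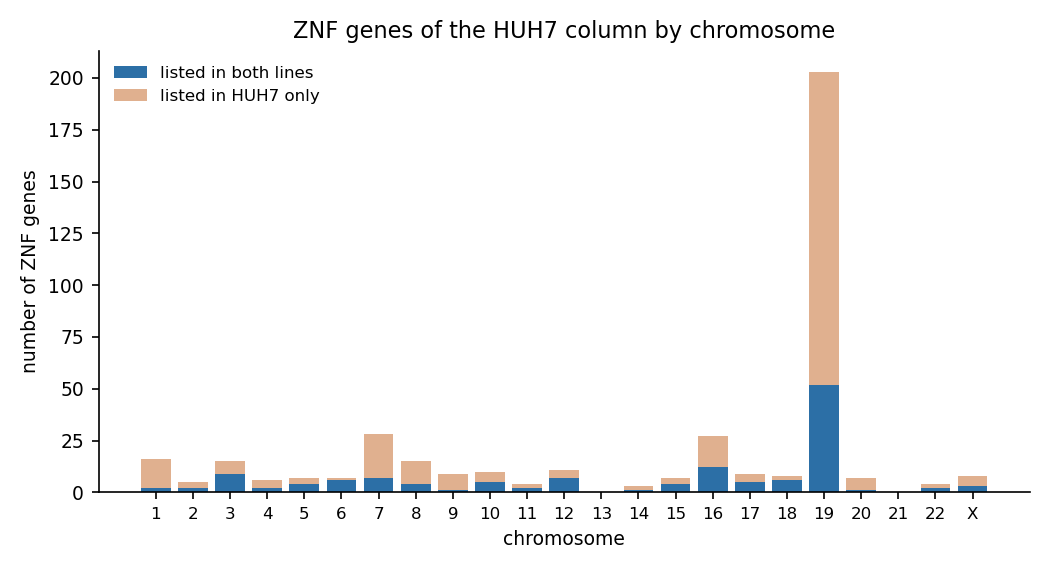
Number of ZNF genes of the HUH7 column on each chromosome, stacked as listed in both lines and listed in HUH7 only. Chromosome 19 holds 52 of the 137 shared genes and 151 of the 272 HUH7-only genes.

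In HUH7 the shared ZNF genes were spread on both sides of 0, with 71 positive and 66 negative values. The share of positive values was 51.8% (Clopper-Pearson 95% interval 43.1 to 60.4), against 58.5% of HUH7-only ZNF genes (52.4 to 64.4) and 60.8% of all 10447 genes. Their median was 0.05, with quartiles of -0.45 and 0.81, against a median of 0.24 for HUH7-only ZNF genes and 0.20 for all genes. Genes of all kinds differed in the same direction. Those listed in both columns had a median of 0.12 and 58.2% positive values, and those in HUH7 only 0.25 and 62.3%. An absolute log2 fold change below 0.5 was found for 61 of the 137 genes (44.5%), against 42.3% of all genes and 33.5% of HUH7-only ZNF genes. A value of 1 or more was held by 32 shared ZNF genes (23.4%), beside 22.2% of all genes of the column. A value of -1 or less was held by 22 (16.1%), beside 14.6% of all genes. Both shares lie near the background of the column. Without the repeated values described below, 13 of 121 shared genes (10.7%) were at -1 or less, beside 7.72% of all such genes, and 25 (20.7%) at 1 or more, beside 20.1%. Among the 3866 genes of all kinds listed in both columns, 17.4% reached 1 and 12.3% reached -1. Among HUH7-only ZNF genes, 86 (31.6%) reached 1 and 53 (19.5%) reached -1. None of these differences between lists was tested.

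**Figure D2:**
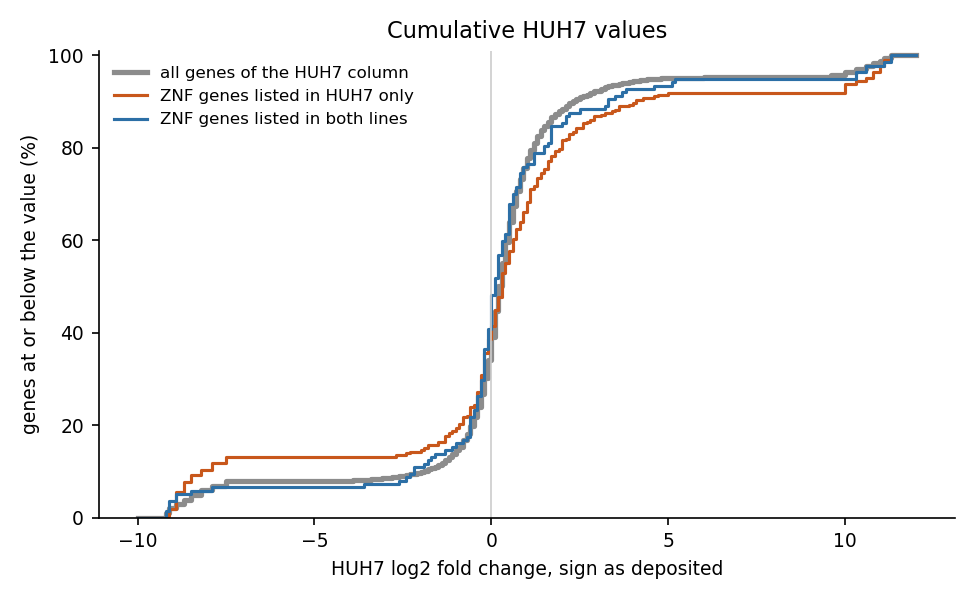
Cumulative share (%) of genes at or below each HUH7 log2 fold change, for ZNF genes listed in both lines (137), ZNF genes listed in HUH7 only (272) and all genes of the column (10447). Below -1 the curve of the shared genes stays close to that of all genes. Above 1 it falls between the other 2, as at 3.0, with 88.3% of shared, 86.8% of HUH7-only and 92.4% of all genes. The curve of the HUH7-only genes has the heaviest ends.

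Positive values were more frequent among shared genes on chromosome 19 than elsewhere. On chromosome 19, the median was 0.21 and 33 of 52 were positive (63.5%, Clopper-Pearson 95% interval 49.0 to 76.4). On the other chromosomes, the median was -0.09 and 38 of 85 were positive (44.7%, 33.9 to 55.9). The intervals overlap, and the difference was not tested. Over all genes of the column, on any chromosome, 60.8% were positive and the median was 0.20. The shared genes of chromosome 19 lay near that background, and those of other chromosomes below it. Of the HUH7-only ZNF genes, 57.0% were positive on chromosome 19 and 60.3% elsewhere, with medians of 0.24 and 0.22.

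ZNF397, a SCAN-domain gene (chromosome 18, 35241034 to 35259227, GRCh38), had the highest HUH7 value that was not repeated across many genes, 5.17 in the authors' deposited table. Its gene overlaps that of ZSCAN30 in RefSeq, and whether counting used the strand is not given in the sources used here. ZNF264 (chromosome 19, 57191500 to 57222846) followed with 5.06 and ZNF546 (chromosome 19, 39997060 to 40021038) with 4.60 in the authors' deposited table. Both encode KRAB zinc finger proteins. ZNF45 (3.77), ZNF681 (3.70), ZNF780A (3.47), ZNF267 (3.28) and ZNF337 (3.21) completed the 8 highest in the authors' deposited table. Of these 8 genes, 5 lie on chromosome 19. ZNF780A has a close copy, ZNF780B, and reads of such pairs may be shared or split.

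The PLC/PRF/5 values of the same 8 genes covered most of that column's range. ZNF264 had 12.63 and ZNF397 had 2.18 in the authors' deposited table. ZNF45 had 0.86 and 11.37, and ZNF780A had -1.51 and 5.95, in the authors' deposited table. A high HUH7 value thus stood beside PLC/PRF/5 values anywhere from below 0 to near the top.

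ZNF805 (chromosome 19, 57240632 to 57262728, GRCh38) had the lowest unrepeated HUH7 value, -3.66 in the authors' deposited table. Next came ZNF407 (-2.67), the longest of the shared genes, and ZNF766 (-2.44) in the authors' deposited table. ZNF200 (-2.40), ZNF891 (-2.22), ZNF91 (-2.20), ZNF652 (-1.96) and ZNF675 (-1.81) completed the 8 lowest in the authors' deposited table. ZNF91 encodes a KRAB protein that represses SVA retrotransposons, and ZNF652 encodes a DNA-binding repressor. ZNF91 and ZNF675 are next to each other on chromosome 19. ZNF766 alone of the 8 had no positive PLC/PRF/5 value and was given -0.61 in the authors' deposited table. In PLC/PRF/5, ZNF407 had -1.06, 9.59 and 10.40 in the authors' deposited table.

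A further 16 shared genes (11.7%) held HUH7 values that 10 or more genes of the column share to 6 decimals, beside 12.6% of all genes and 21.3% of HUH7-only ZNF genes. Among genes of all kinds, 9.18% of those listed in both columns and 14.6% of those in HUH7 only held a repeated value. The repeated values of the 16 shared genes lie far from the rest. There were 7 between 10.24 and 11.24, and 9 between -9.27 and -7.94, while the other 121 genes ran from -3.66 to 5.17. On the positive side, ZNF354B and ZNF800 had 11.24, ZNF331, an imprinted gene, had 11.09, and ZNF322 had 10.50 in the authors' deposited table. On the negative side, ZNF165 and ZNF699 had -9.27, and ZNF33B and ZNF623 had -9.11 in the authors' deposited table. The value 11.24 stood for 61 genes of the column and -9.27 for 104. Such a value therefore does not rank 1 gene against another. ZNF33B has a near-identical copy in ZNF33A, which had -1.36 in the authors' deposited table, and reads may be shared between them. HUH7-only ZNF genes on chromosome 19 held a repeated value in 43 of 151 cases (28.5%), against 5 of 52 shared genes there (9.62%).

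**Figure D3:**
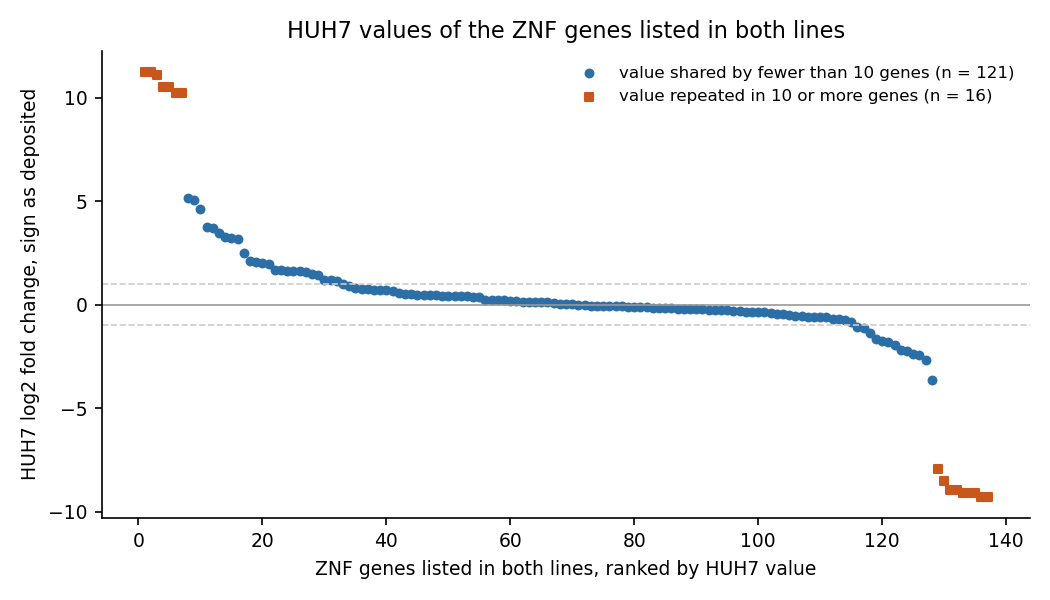
HUH7 log2 fold change of each of the 137 shared ZNF genes, ranked from highest to lowest, with values repeated in 10 or more genes of the column as squares and dashed lines at 1 and -1. The 16 repeated values form 2 groups far from the other 121, which run from -3.66 to 5.17.

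A minority of the shared ZNF genes had a known promoter motif at their start sites, which the rule did not use. RefSeq windows (GRCh38.p14) of 250 bases before to 50 after annotated starts were found for 120 of the 137 genes, 165 windows in all. The letters CTACANNTC, searched on both strands, are part of the sequence bound by ZNF143, a zinc finger activator that acts at many promoters. They occurred in 23 of the 165 windows (13.9%) and in 33 of 293 windows of HUH7-only ZNF genes (11.3%). Over all genes of the HUH7 column 4.63% of windows held them, as did 3.66% of all windows in RefSeq's table. By gene, a match was found in 23 of 120 shared genes (19.2%) and 30 of 236 HUH7-only ZNF genes (12.7%). Over all genes of the HUH7 column with a window it was 6.5%, and these differences were not tested. A match is a description and not a binding site. ZNF143 itself was listed in neither column.

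The matches of 8 genes are shown because they belong to the 4 highest HUH7 values among genes with a match and to 4 genes of a run on chromosome 12. Each is written 5′ to 3′ on the strand that reads CTACA, with the match in capitals. Where a gene had several matches, the nearest to the start is shown.
ZNF354B: acgcgtggaaCTACACTTCccagaaagcc
ZNF331: gggttatggaCTACATTTCccagaggcct
ZNF567: cggccttggaCTACATTTCccacaggcgc
ZNF546: cggctgtggaCTACATTTCccagaagccc
ZNF605: cgcgctggaaCTACACTTCccggggggct
ZNF26: gccggaaaaaCTACATCTCccacaatcct
ZNF140: cctcaagaaaCTACAATTCccagaaacca
ZNF268: ggcaaaaaaaCTACAACTCccagaggcct

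In all 8 the match is preceded by an a and followed by cc. This flank is not found at every match of the shared genes: those of ZNF597 and ZNF41 are preceded by a g. On GRCh38.p14 the first 4 windows lie at chr5:178859888-178859916 (plus strand), chr19:53520879-53520907 (plus), chr19:36687482-36687510 (minus) and chr19:39997024-39997052 (plus). The 4 windows of chromosome 12 lie at chr12:132956325-132956353 (plus), chr12:132986288-132986316 (minus), chr12:133080803-133080831 (minus) and chr12:133181434-133181462 (minus). The distance from the match to the annotated start was 17 bases in ZNF546, 28 in ZNF605 and 116 in ZNF331. ZNF354B, ZNF331 and ZNF140 each have a further match farther from the start.

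Shared genes with such a match had HUH7 values farther to the positive side than those without. The 23 genes with a match had a median of 0.75, and 10 of them (43.5%) were at 1 or more, while the 97 without had a median of 0.01 and 20 (20.6%) at 1 or more. Over the HUH7-only ZNF genes the median was -0.02 in 30 genes with a match, 33.3% of them at 1 or more, and 0.22 in 206 without, 31.1% of them at 1 or more. Over all genes of the column the median was 0.27 in 539 genes with a match and 0.19 in 7753 without, with 25.2% and 21.7% at 1 or more. Repeated values, which do not rank 1 gene against another, were held by 4 of the 23 shared genes with a match and 6 of the 97 without. Many of the 23 lie on chromosome 19, where positive values were more frequent among shared genes, and position and match were not separated. No test was made, and the motif was chosen with the values known. Negative values also occurred beside a match, as in ZNF268 (-8.94) and ZNF140 (-0.61) in the authors' deposited table.

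A second motif, CCGGAAG, the core bound by ETS family activators, was more frequent still at these starts. On either strand it occurred in 58 of the 165 windows (35.2%) and in 36.9% of windows of HUH7-only ZNF genes, against 16.2% over all genes of the HUH7 column and 10.3% over the table. The reverse strand of CCGGAAG can overlap the end of CTACANNTC, and 4 of the 165 windows held both. The windows of shared genes had a median GC content of 62.7%, against 65.0% over all genes of the HUH7 column.

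Neighbouring ZNF genes had HUH7 values of the same sign about as often as of opposite signs. Among protein-coding genes in RefSeq order, 23 pairs of shared genes were next to each other, and 12 pairs had the same sign and 11 opposite signs. The run of 6 genes near the end of chromosome 12 (132918306 to 133214832, GRCh38) divided evenly: ZNF605 had 1.61, ZNF26 had 0.42 and ZNF84 had 1.13, while ZNF140 had -0.61, ZNF891 had -2.22 and ZNF268 had -8.94 in the authors' deposited table. The 3 positive genes come first along the chromosome and the 3 negative genes after them. ZNF140 and ZNF891 overlap in RefSeq, so reads there may belong to either. In PLC/PRF/5 the values of this run went from -1.82 in ZNF140 to 12.65 in ZNF891 in the authors' deposited table.

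On chromosome 19, the run of 7 genes from 43912624 to 44237268 had 3 positive and 4 negative values. ZNF45 (3.77) stood apart there from ZNF226 (0.14), ZNF224 (0.05), ZNF234 (-0.07), ZNF222 (-0.33), ZNF223 (-0.48) and ZNF227 (-1.12) in the authors' deposited table. ZNF224 encodes a KRAB repressor known from the aldolase A promoter. Farther along, the run of 4 genes between 57191500 and 57330770 held both a high value and the lowest unrepeated one: ZNF264 (5.06), ZNF805 (-3.66), ZNF460 (2.02) and ZNF543 (1.98) in the authors' deposited table. On chromosome 16, the 6 genes between 30378312 and 30787205 all lay within -0.45 and 0.73. These were ZNF689 (-0.45), ZNF48 (-0.37), ZNF768 (0.12), ZNF771 (0.44), ZNF629 (0.44) and ZNF688 (0.73) in the authors' deposited table. In all, 24 of the 137 genes overlap another protein-coding gene in RefSeq.

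Most shared ZNF genes on 4 chosen lists of known roles lay within 1 of 0 in HUH7. Lists of 4 roles named 44 ZNF genes, of which 19 were shared, 6 with positive and 13 with negative values and a median of -0.09. Of all 137 shared genes 51.8% were positive, with a median of 0.05, and of all genes of the column 60.8%, with a median of 0.20. These differences were not tested. ZNF91 alone passed -1 and none reached 1, beside 14.6% and 22.2% of all genes of the column. The lists leave out other shared genes with a role given above, such as ZNF331 (11.09, a repeated value) and ZNF652 (-1.96) in the authors' deposited table. A further 19 listed genes were in HUH7 only and are not described here. ZNF445, which maintains imprinted methylation, had -0.04, and ZNF274, which brings SETDB1 to the 3′ ends of ZNF genes, had -0.09 in the authors' deposited table.

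Of the sequence-specific regulators, ZNF148, which binds GC-rich promoters, had -0.83, and its relative ZNF281 had -0.57 in the authors' deposited table. ZNF24 had -0.17 and ZNF131 had 0.17 in the authors' deposited table. Of the 6 partners of chromatin complexes, 5 were negative, as were 66 of the 137 shared genes and 4088 of the 10447 genes of the column. ZNF644, a partner of the H3K9 methyltransferases G9a and GLP, had -0.69, and ZNF518A had -0.67 in the authors' deposited table. ZNF292 (-0.27), ZNF451, a SUMO ligase (-0.09), and ZNF609 (-0.03) lay nearer to 0, and ZNF516 (0.18) alone was positive in the authors' deposited table.

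Genes of RNA handling and translation had 4 positive and 2 negative values, beside 51.8% positive among all shared genes and 60.8% over the column. ZNF318 (0.89) and the RNA-binding ZNF106 (0.56) were the highest in the authors' deposited table. ZNF598, the ubiquitin ligase that marks collided ribosomes, had 0.44, and the splicing-associated ZNF830 had 0.09 in the authors' deposited table. ZNF638, which works with the HUSH complex in silencing unintegrated retroviral DNA, had -0.10, and ZNF622, a factor of 60S ribosome maturation, had -0.14 in the authors' deposited table.

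Cofactors through which KRAB proteins repress had values on both sides. Of 16 listed cofactor genes, 13 were in HUH7, 6 positive and 7 negative, with a median of -0.10, where 60.8% of all genes of the column were positive and the median was 0.20. TRIM28, the KRAB corepressor itself, alone was at 1 or more, beside 22.2% of all genes, with 3.24 in the authors' deposited table. Values of -1 or less were held by 4 of the 13, beside 14.6% of all genes. Of these, SETDB1 had -1.59 in the authors' deposited table. CBX1 (-8.27), PPHLN1 (-9.11) and SMARCAD1 (-7.94) held repeated values in the authors' deposited table. In PLC/PRF/5, 12 of the 16 were listed, 11 with a positive median and 1 with a negative one, beside 90.3% positive medians over all genes, and TRIM28 and SETDB1 were not among them. TASOR, of the HUSH complex, is counted there under its older name.

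In PLC/PRF/5 the 137 shared genes had 234 values, taken as peaks, and most were positive. Of the 234 values 205 were positive (87.6%, Clopper-Pearson 95% interval 82.7 to 91.5), against 86.0% over all 9516 values of the column. By gene, 126 medians were positive (92.0%), beside 90.3% of all genes. A median of 1 or more was held by 123 genes (89.8%), beside 84.5% of all genes, and a median of -1 or less by 5 (3.65%), beside 4.47% of all genes. The median of the gene medians was 6.21 (order-statistic 95% interval 5.09 to 7.0), against 5.45 over all genes. The values ran from -2.11 in ZNF646 to 12.95 in ZNF638 in the authors' deposited table. Each unit-wide bin from -2 to 13 held between 9 and 23 of them, and in the whole column between 599 and 655 values, so both were spread over the whole range. Nothing in the table shows that a PLC/PRF/5 value is tied to the gene name beside it.

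No positive value was found in 10 shared genes (7.30%), each with 1 value, beside 8.75% of all genes of the column. ZNF646 (-2.11), ZNF41 (-2.01), ZNF394 (-1.70), ZNF280D (-1.62) and ZNF570 (-1.50) were the lowest of them in the authors' deposited table. ZNF766 (-0.61), ZNF579 (-0.44), ZNF544 (-0.38), ZNF852 (-0.33) and ZNF449 (-0.19) lay nearer to 0 in the authors' deposited table. In HUH7 the same 10 genes went both ways, from ZNF449 with a repeated value of -8.53 to ZNF570 with 0.73 in the authors' deposited table.

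Most shared genes had a single PLC/PRF/5 value. A single value was held by 81 of the 137 genes (59.1%, against 60.5% of all genes of the column), and 2 or more by 56. ZNF292, a large zinc finger gene mutated in neurodevelopmental disorders, had the most, 8 values: 2.38, 3.26, 4.38, 5.93, 6.92, 7.13, 8.91 and 9.98 in the authors' deposited table. ZNF638 had 7: -1.05, 2.35, 3.17, 5.78, 6.79, 7.81 and 12.95 in the authors' deposited table. ZNF518A had 6: 1.89, 6.57, 7.71, 7.97, 10.20 and 12.29 in the authors' deposited table. ZNF292 and ZNF518A thus had only positive values, and ZNF638 had 1 below 0. ZNF148 had 2.93, 7.95, 8.81 and 9.72 in the authors' deposited table. ZNF644 had 2.92, 5.67, 8.07 and 11.86, and ZNF451 had -1.70, 4.28, 5.51 and 12.52, in the authors' deposited table. ZNF675, which had 1.04, 4.52, 9.76 and 11.15, and ZNF770, which had 3.31, 4.04, 4.26 and 11.94, also had 4 values in the authors' deposited table. Of these 8 genes with 4 or more values, ZNF770 alone (9947 bases) is shorter than the median of 24862 bases. The others are longer, up to 149686 bases in ZNF148. Across the 137 genes, which share the same libraries, gene length and number of values had a Spearman rho of 0.31 and a Pearson r of 0.32.

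Values of the same gene were often far apart. In the 56 shared genes with 2 or more values, the distance from the lowest to the highest had a median of 6.99. It was smallest in ZNF274, which had 8.19 and 8.76, and largest in ZNF281, which had -1.80, 4.14 and 12.56, in the authors' deposited table. Over all 2166 genes of the column with several values the median distance was 6.42. Values of both signs occurred in 18 of the 56 genes (32.1%), beside 33.2% of those 2166, so the shared genes lie near the background in both respects. ZNF189 had -1.53, -0.77 and 12.44 and alone among them had a negative median in the authors' deposited table. Which place on the transcript each value belongs to is not analysed here.

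**Figure D4:**
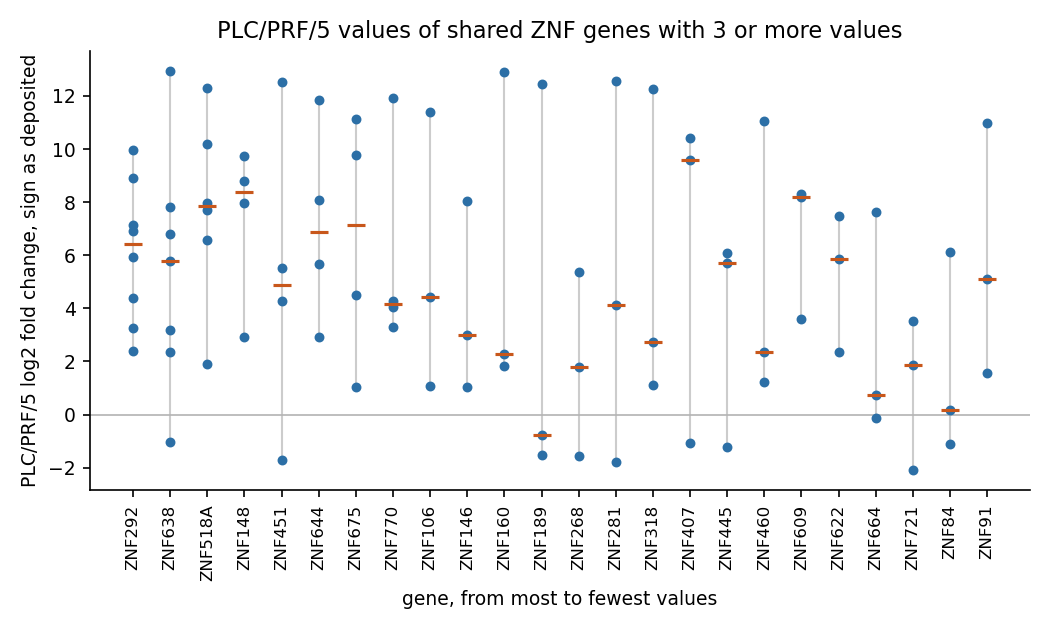
PLC/PRF/5 log2 fold changes of the 24 shared ZNF genes with 3 or more values, each point a value, the grey line their range and the short bar their median. Points of 1 gene lie anywhere from below 0 to near 13, as in ZNF638 (-1.05 to 12.95).

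Set side by side, the values of the lines had little in common, for the shared ZNF genes as for all genes in both columns. The PLC/PRF/5 median had the sign of the HUH7 value in 70 of 137 genes (51.1%, Clopper-Pearson 95% interval 42.4 to 59.7), beside 56.9% of all 3866 genes listed in both columns. Whether the columns run in the same direction is not given, and counting equal signs takes it for granted. Both values were positive in 65 genes and both negative in 5, while 61 were negative in HUH7 with a positive PLC/PRF/5 median and 6 the reverse. With 92.0% of PLC/PRF/5 medians positive, most genes with equal signs are those positive in HUH7. In HUH7, 51.8% of the shared genes and 58.2% of all genes listed in both columns were positive. Across the 137 genes, the Pearson r was 0.04 and the Spearman rho 0.00, given as a description of genes that share their libraries. Over all 3866 genes listed in both columns, both coefficients were -0.00.

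The 5 genes negative in both were ZNF41, ZNF189, ZNF449, ZNF766 and ZNF852. ZNF41 had -0.32 and ZNF852 had -0.36 in HUH7 in the authors' deposited table. Genes with 1 PLC/PRF/5 value had a HUH7 median of 0.14 over 81 genes, and those with several had -0.08 over 56. Of the first 58.0% were positive in HUH7 (46.5 to 68.9), and of the second 42.9% (29.7 to 56.8), intervals that overlap.

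**Figure D5:**
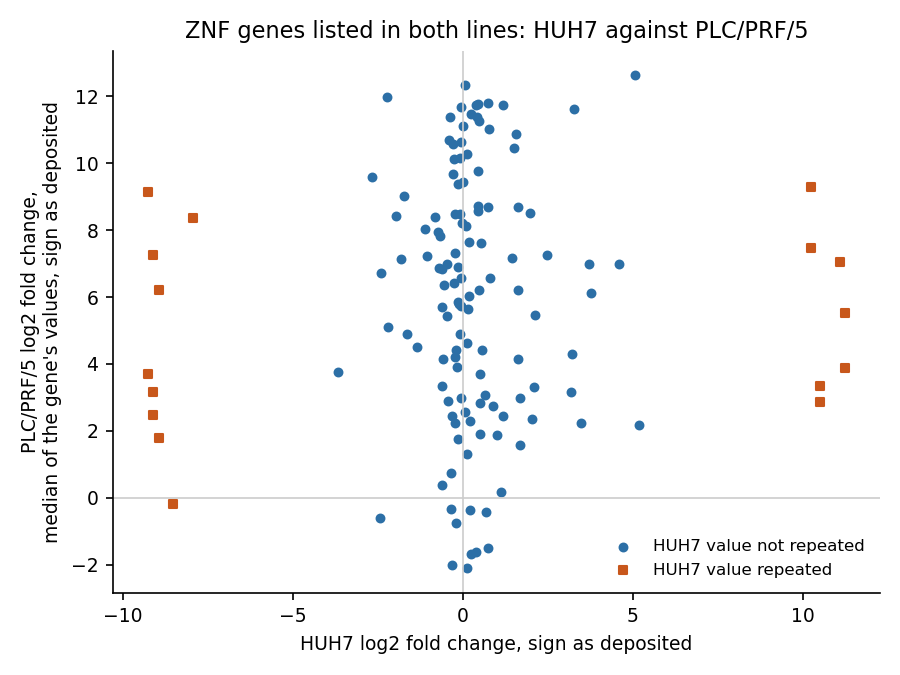
PLC/PRF/5 median against HUH7 log2 fold change for the 137 shared ZNF genes, with repeated HUH7 values as squares. Points lie across most of the PLC/PRF/5 range on both sides of a HUH7 value of 0, and 61 lie at a negative HUH7 value with a positive PLC/PRF/5 median.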

How the data were processed

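The file analysed was 1 table of the whole series with a column of gene names and a column of values for each line. Per the file headers, the authors' deposited values are log2 fold changes, and the table's title sets control beside knockout. How reads were aligned, peaks called, immunoprecipitate scaled to input, values filtered and tested, and which way the ratio runs, is not given in the sources used here. The submitters' processing notes name FastQC 0.12.0 and genome build hg38. Levels per library and the places of peaks were not analysed here.

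The shared genes and all lists were chosen with earlier results of these data known. Names were used as given, and all 137 were current symbols of the RefSeq table (GRCh38.p14), from which gene positions and start windows come. A gene with several PLC/PRF/5 values was given their median. Repeated HUH7 values are those beyond 1 or -1 held, at 6 decimals, by at least 10 genes. A fold was counted from an absolute log2 fold change of 1. With 1 library per group no test between conditions was possible, and lists were described by counts and medians beside those of the column. Shares have exact (Clopper-Pearson) 95% intervals and medians order-statistic 95% intervals, which hold no error between libraries. Neighbours were the next protein-coding genes by start, and a run was 4 or more shared genes with gaps of at most 200000 bases. Genes named in the text were the 8 highest and 8 lowest unrepeated and the 4 highest and 4 lowest repeated HUH7 values, the genes with the most PLC/PRF/5 values (the rule asked for 6, and since 5 genes tied at 4 values all 8 with 4 or more are named), those with only negative values there, members of the role and cofactor lists, and neighbours. The comparison of start windows was added after the values were seen. The counting was tested on simulated tables. Python 3.11.15, numpy 2.4.6, scipy 1.17.1 and matplotlib 3.10.9 were used.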

Additional observations from a re-analysis of the deposited data

How the results depend on the processing

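Of 20 alternative values, 17 stayed within the interval of the main value or within 1.5 times its count, and 3 moved. Counted from a size of 2 in place of 1, the number of shared ZNF genes past the fold on the positive side of HUH7 was 20 in place of 32. At or below 2 lay 85.4% of the shared genes and 88.5% of all genes of the column. With repeated HUH7 values left out, the number at -1 or less was 13 in place of 22. These 13 were 10.7% of the unrepeated shared genes, beside 7.72% of all unrepeated genes. Either change can only lower a count, by construction. With the value of largest size in place of the median, the median PLC/PRF/5 value was 7.76 in place of 6.21; choosing the largest size raises a mostly positive value by construction. Among the alternatives whose value stayed within the interval, the median HUH7 value of the shared genes was -0.09 off chromosome 19 and 0.01 among genes that overlap no other protein-coding gene, both chosen after seeing the data, in place of 0.05. No paired analysis was possible because each group held 1 library and the deposited values are fold changes. Depth is unknown, so what it limits could not be measured.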
